A study of Homo sapiens with 2 samples.

Results

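The enzymes that write and remove DNA methylation were examined in SAS cells carrying a short hairpin RNA to ATMIN (shATMIN), set against SAS cells that the labels call neo. The 9 genes were DNMT1, DNMT3A and DNMT3B, the methyltransferases, UHRF1, the cofactor that guides DNMT1, TET1, TET2, TET3 and TDG, which take it off, and MBD2, which reads it. They were chosen by name with the differences of these same samples already known, so what follows is a description. A probe counted for a gene where the platform annotation named that gene alone. That gave 17 probes for the 9 genes among 31741 probes, and each gene had at least 1 probe bright enough to be among the 12421 genes compared.

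SAS is an established cell line from a human squamous cell carcinoma of the tongue. ATMIN, the targeted gene, encodes a zinc finger partner of the ATM kinase, and the study asked whether lowering it affects cancer progression. The shATMIN cells came from plasmid transfection followed, after 24 h, by medium with 10% serum and 3 µg/mL puromycin, from which resistant clones were grown. The same text stands for the neo control. The sources used here do not give its own construct or selection, nor whether either sample was a single clone or a pool. There was 1 sample in each group, so no difference could be checked against replicates or tested.

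Methylation of cytosine in CpG pairs is copied after replication by DNMT1, which UHRF1 brings to hemimethylated DNA. DNMT3A and DNMT3B place new methyl groups, and the TET dioxygenases oxidise the mark to forms that TDG can excise before base excision repair restores cytosine. In carcinomas this balance is known to be disturbed, with promoter CpG islands gaining methylation while much of the genome loses it.

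Each probe had 1 background-subtracted linear intensity per sample, deposited without visible scaling between samples. The upper quartile was 535 in the shATMIN sample and 629 in the neo control, and the median difference over the 12421 compared genes was -0.16 on the log2 scale, shATMIN minus neo control, with 70.7% of them lower in the shATMIN sample. Differences are best read against that shift. ATMIN itself read 61.5 in the shATMIN sample and 105 in the neo control, a difference of -0.76. The shATMIN value lay near 58.9, the intensity that the mean of a compared probe had to reach. A second ATMIN probe, too dim to compare, read 26.5 in the shATMIN sample and 51.5 in the neo control. DYNLL1, the best known transcriptional target of ATMIN, stood at 0.03. All 12 squamous markers on the list were bright enough to be compared, with 6 lower and 6 higher, KRT6A and KRT14 at 1.00 and 0.99 and SFN at -0.48. The probes of TP63 gave -1.19 and -0.06. Of 10 leukocyte, 8 endothelial and 10 fibroblast markers 4 each were compared, and PTPRC, CD3E and COL3A1 did not reach the level for comparison. Summed over the compared probes these lists read 2991, 560.5 and 1601 in the shATMIN sample and 3316, 584 and 1684 in the neo control, where CD14 alone gave 2602 of the leukocyte and FAP 983 of the fibroblast sum in the shATMIN sample. Single markers moved both ways, with CD68 at -0.64, ITGAM at 0.54, CDH5 at -0.60 and TEK at 0.40, and the part of all these markers in the differences below was not tested.

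The promoters of the maintenance pair are shown first, because UHRF1 and DNMT1 act in the same step and both are known to be made mainly in S phase, when E2F factors are active. The windows run from 250 bases before to 50 after a transcript start in RefSeq (GRCh38.p14), 5′ to 3′ on the strand of the gene, and capitals mark letters of the E2F type (TTTCCCGC, TTTCGCGC, TTTGCCGC or TTTGGCGC on either strand). The UHRF1 window lies at chr19:4909251-4909550 on the plus strand and the DNMT1 window at chr19:10194904-10195203 on the minus strand.
UHRF1: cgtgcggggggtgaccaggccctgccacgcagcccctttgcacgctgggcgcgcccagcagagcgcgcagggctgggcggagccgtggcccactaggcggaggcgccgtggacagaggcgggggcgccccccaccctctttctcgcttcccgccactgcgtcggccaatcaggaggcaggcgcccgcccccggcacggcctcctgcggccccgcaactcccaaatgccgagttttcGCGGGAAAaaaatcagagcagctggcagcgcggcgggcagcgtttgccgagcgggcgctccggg
DNMT1: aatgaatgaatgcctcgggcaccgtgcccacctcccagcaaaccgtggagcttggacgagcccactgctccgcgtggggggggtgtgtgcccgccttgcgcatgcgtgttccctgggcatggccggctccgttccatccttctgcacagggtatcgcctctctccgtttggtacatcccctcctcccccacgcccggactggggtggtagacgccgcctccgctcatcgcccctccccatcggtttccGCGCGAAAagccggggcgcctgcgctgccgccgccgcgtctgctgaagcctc
The match began 14 bases before the start in UHRF1 and 2 bases before the start in DNMT1. Such letters stood in 3.31% of 35116 windows of the same length. No match overlapped a GC box in these windows. Of the 20 windows of the 9 genes 3 held them, 1 in DNMT1 and 2 of the 3 in UHRF1, and those of the other members did not, which says nothing about the factors that act there.

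DNMT3A is shown next because its probes disagreed and its transcripts start in separate places. Its 6 windows fell into 2 groups of 3, up to 90.5 kb apart, and 1 of each is given, at chr2:25341876-25342175 (upstream) and chr2:25252266-25252565 (downstream, inside the gene), both on the minus strand. Capitals here mark the GC box (GGGCGG on either strand), which 45.0% of all windows held.
DNMT3A upstream start: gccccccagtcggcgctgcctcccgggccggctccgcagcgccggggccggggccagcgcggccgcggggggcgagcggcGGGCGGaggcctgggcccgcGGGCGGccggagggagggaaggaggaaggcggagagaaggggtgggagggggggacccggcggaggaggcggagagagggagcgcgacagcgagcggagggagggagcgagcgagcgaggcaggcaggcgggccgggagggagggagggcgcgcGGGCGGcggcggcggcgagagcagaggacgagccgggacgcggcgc
DNMT3A downstream start: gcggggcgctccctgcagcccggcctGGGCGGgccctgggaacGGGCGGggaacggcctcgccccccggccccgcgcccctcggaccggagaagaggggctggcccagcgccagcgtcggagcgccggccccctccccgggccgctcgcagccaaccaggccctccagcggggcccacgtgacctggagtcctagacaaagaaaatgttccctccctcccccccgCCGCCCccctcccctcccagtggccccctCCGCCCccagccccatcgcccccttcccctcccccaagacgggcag
The upstream window held 3 GC boxes and 46 CpG pairs, and the downstream window 4 GC boxes and 28 CpG pairs. The probe sequences were not used here, so which transcripts each DNMT3A probe detects is not known. The median over the 20 windows of the 9 genes was 27 CpG pairs, against 14 over all windows. The single DNMT3B window held the fewest, 3, and windows of DNMT3A and UHRF1 the most, 46. Any other start of DNMT3B is not covered by that window.

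On the writing side, UHRF1, the reader of hemimethylated CpG that guides DNMT1, read 12121 in the shATMIN sample and 23502 in the neo control. The shATMIN value was 48.4% lower, a difference of -0.96 on the log2 scale, just short of 2-fold, on the only UHRF1 probe. Of all compared genes 1.68% had a difference as low or lower. Of the 776 genes with a mean level within 1 log2 unit of UHRF1, 4 were as low, UHRF1 included. The others, named after their values were seen, were the cyclin gene CCND2 at -1.63, WDR43, a gene of ribosome assembly, at -1.05 and the kinase gene UHMK1 at -0.997. No pair of readings was sought behind values as high as those of UHRF1.

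DNMT1, the maintenance methyltransferase itself, read 1765 in the shATMIN sample and 1919.7 in the neo control. The difference was -0.12, closer to 0 than the median of all compared genes. Deposited values below 2000 behave as means of 2 whole-number readings, which could be recovered from their low digits. The sources used here do not say whether these are the 2 arrays listed per sample. For DNMT1 the recovered readings were 1743 and 1788 in the shATMIN sample and 1813 and 2027 in the neo control. The shATMIN readings were thus the lower ones without overlap, but by little. A second, much wider pair also matched the shATMIN value.

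DNMT3A, a de novo methyltransferase, gave 2 unlike results. On its brighter probe it read 58.0 in the shATMIN sample and 155 in the neo control, a difference of -1.40. The readings were 56.9 and 59.1 in the shATMIN sample and 148 and 162 in the neo control, far apart between the samples and close within each. On the other probe DNMT3A read 87.5 in the shATMIN sample and 98.0 in the neo control, a difference of -0.16, close to the median of all compared genes. The readings of that probe were 83.2 and 91.8 in the shATMIN sample and 97.8 and 98.2 in the neo control. The first probe was the brighter one through its neo control value alone, being dimmer than the second in the shATMIN sample. Both probes were dim, and the lowest value of the brighter one, 58.0, lay just under 58.9, the intensity that the mean of a compared probe had to reach.

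The gap between the 2 DNMT3A probes was 1.24 on the log2 scale. Of 2973 genes with several compared probes 2.86% had a gap at least as wide, and the median gap was 0.27. On the brighter probe both readings in the shATMIN sample stood below both in the neo control. The same held for 52.0% of all compared probes with recoverable readings. At its level, 5 of 3426 compared genes had a difference as low: CD248, RDH11, PLCB3, RAPGEF5 and DNMT3A, the first 4 named after their values were seen.

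DNMT3B, the other de novo methyltransferase, read 421 in the shATMIN sample and 474 in the neo control, a difference of -0.17. Its readings were 415 and 427 in the shATMIN sample and 466 and 481 in the neo control. The samples did not overlap, yet the size was close to the median of all compared genes.

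**Figure D1:**
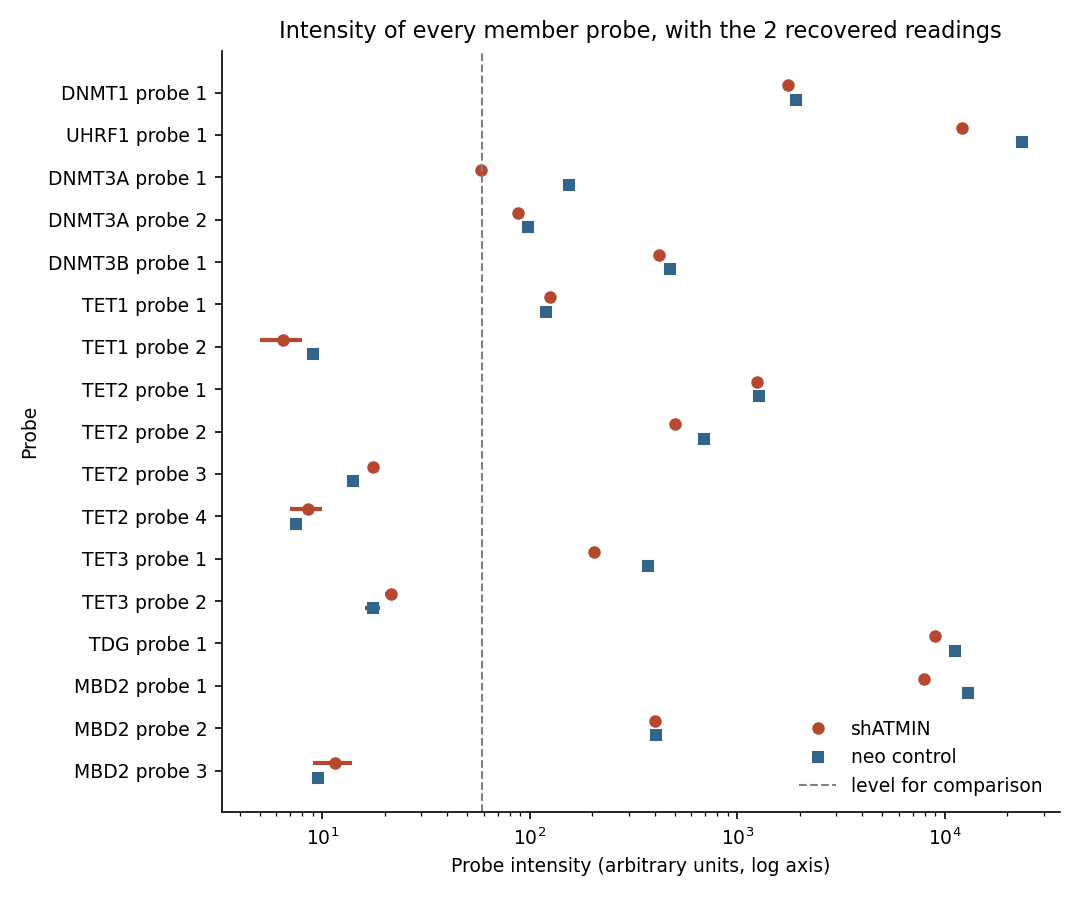
Intensity of each of the 17 member probes on a log axis, with shATMIN as circles above neo control as squares; horizontal bars span the 2 recovered readings where a value lies below 2000 and are mostly narrower than the symbol. The 2 samples stand visibly apart for UHRF1, the first DNMT3A probe, TET3 and the first MBD2 probe, while 5 probes lie far left of the level for comparison.

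Among the erasers, TET3, a dioxygenase that oxidises 5-methylcytosine, read 204.5 in the shATMIN sample and 372 in the neo control. The difference was -0.86, which 3.11% of compared genes reached or passed. The readings were 204.4 and 204.6 in the shATMIN sample and 353 and 391 in the neo control, so the samples were well separated. A second TET3 probe was too dim to compare, at 21.5 in the shATMIN sample and 17.5 in the neo control, and ran the other way.

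TET2, the family member often mutated in blood cancers, had 2 compared probes. On the brighter one it read 1249.55 in the shATMIN sample and 1273 in the neo control, a difference of -0.03. The readings, 1224 and 1275 in the shATMIN sample and 1236 and 1310.1 in the neo control, overlapped, although a wider pair also matched the shATMIN value. On the other TET2 probe the values were 503 in the shATMIN sample and 690.5 in the neo control, a difference of -0.46. Its readings, 476 and 530.01 in the shATMIN sample and 676 and 705 in the neo control, did not overlap. The gap between these probes was 0.43, and 30.6% of genes with several compared probes had one as wide.

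TET1, the founding member of the family, was the only gene of the 9 that read higher on its compared probe, at 126 in the shATMIN sample and 119.98 in the neo control. The readings were 124 and 127 in the shATMIN sample and 112 and 128 in the neo control, and overlapped, so the direction of this difference of 0.06 cannot be read. Its other probe read 6.5 in the shATMIN sample and 9.0 in the neo control, too dim to compare.

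TDG, the glycosylase that removes the oxidised bases, read 8947 in the shATMIN sample and 11214.5 in the neo control. The difference was -0.33 on a single probe, and 31.2% of compared genes were as low. Of the 1188 genes within 1 log2 unit of its level 340 were as low, so TDG sat among its neighbours.

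The reader MBD2, which binds methylated CpG and brings in the NuRD deacetylase complex, also depended on the probe. On its brightest probe MBD2 read 7911 in the shATMIN sample and 12889.5 in the neo control, a difference of -0.70, and 43 of 1175 compared genes near that level were as low. On the next probe it read 403 in the shATMIN sample and 405 in the neo control, a difference of -0.01 with overlapping readings of 382 and 424 in the shATMIN sample and 403 and 407 in the neo control. The gap of 0.70 between these probes was matched or passed by 13.4% of genes with several. The remaining MBD2 probe, at 11.5 in the shATMIN sample and 9.50 in the neo control, was too dim to compare.

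**Figure D2:**
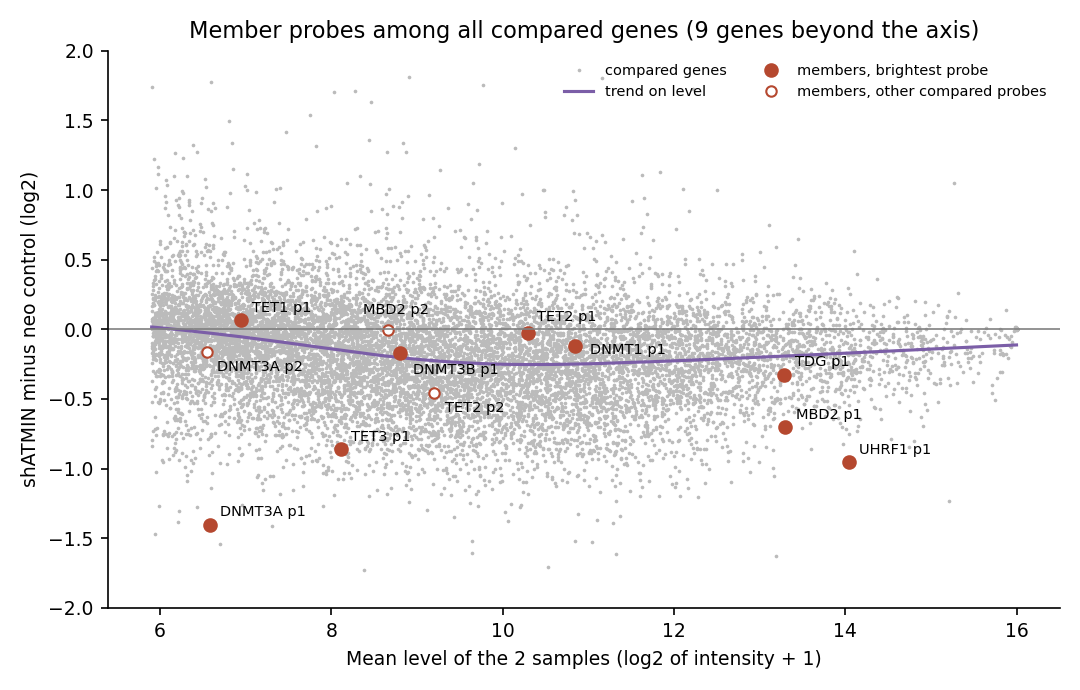
Difference in log2, shATMIN minus neo control, against mean level for the 12421 compared genes (grey; 9 lie beyond the axis), with the member probes and the trend on level. UHRF1 lies at the lower edge of the bright genes and the first DNMT3A probe at the lower edge of the dim ones, whereas DNMT1, DNMT3B, TET1 and TET2 on their brightest probes lie close to or above the trend.

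Taking the brightest probe of each gene, 8 of the 9 were lower in the shATMIN sample, where 70.7% of all compared genes were lower. The median of the 9 was -0.33, against -0.16 over all compared genes. DNMT3A was the only one at least 2-fold lower, a size that 1.34% of compared genes reached, and none was at least 2-fold higher, where 0.459% of compared genes were. At the looser size of 1.5-fold 4 were lower, UHRF1, DNMT3A, TET3 and MBD2, and none higher, against 12.2% of compared genes lower and 1.90% higher. The other compared probes of DNMT3A and MBD2 stood at -0.16 and -0.01. The DNMT3A probe counted was the brighter one through its neo control value alone. With the mean of the probes of a gene no member was at least 2-fold apart. These counts come from the contrast by which the genes were chosen, so nothing is read from them. Genes that write the mark and genes that remove it both held members that stood low and members near the general shift.

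Of the 12 compared probes 9 had recoverable readings in both samples. Taking the closest matching pair, both shATMIN readings lay below both neo control readings in 6 of them. In 3 they overlapped, and in none did they lie above. DNMT1 is among the 6, although a wider pair also matched its shATMIN value. Over all 11985 compared probes with recoverable readings the shares were 52.0% below and 20.2% above. Separation of readings is therefore common and small differences pass it, as DNMT3B shows. Between 100 and 300 in intensity the SD between the readings of a sample was 0.19 in the shATMIN sample and 0.20 in the neo control on the log2 scale, and between 300 and 1000 it was 0.12 in the shATMIN sample and 0.11 in the neo control. Probes were grouped here by the higher of their 2 values. The differences of TET3 and of the brighter DNMT3A probe, the largest among the 9, were several times these SDs. The other DNMT3A probe stood at -0.16. These SDs measure technical spread and not that between cultures, so nothing further is read from the comparison.

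The scaling of the samples decided the direction of the small differences. With both samples scaled to a common 75th percentile, 5 of the 9 genes were lower, where 41.2% of all compared genes were, namely UHRF1 at -0.72, DNMT3A at -1.17, TET3 at -0.63, TDG at -0.09 and MBD2 at -0.47. The same 5 were lower once the trend of the difference on level was removed, at -0.78, -1.37, -0.71, -0.13 and -0.51 in that order. DNMT1 then stood at 0.11 under scaling and 0.13 without the trend, DNMT3B at 0.06 and 0.03, and TET2 at 0.21 and 0.23 on its brightest probe. The second DNMT3A probe stood at 0.07 under scaling and -0.14 without the trend. Scaling adds the same 0.23 to every gene, so a sign that turns under it is fixed by that shift. As deposited DNMT1 was lower, with readings separated only if the closest matching pair is the right one. The difference of UHRF1 lay below the difference of DNMT1 by 0.83 as deposited.

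**Figure D3:**
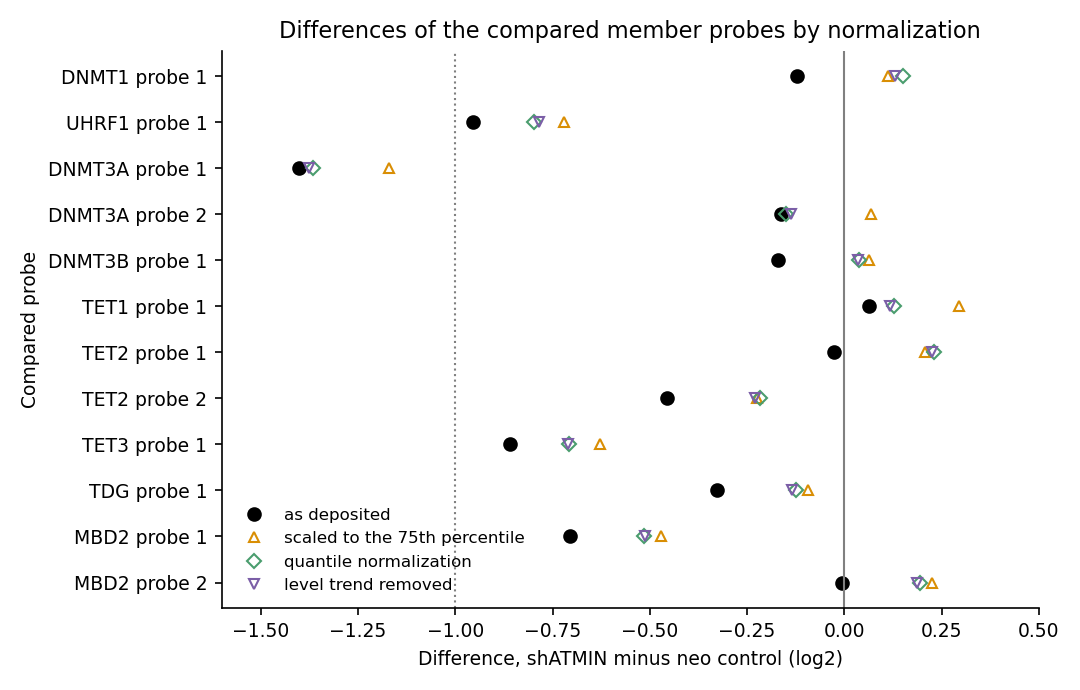
Difference in log2, shATMIN minus neo control, of the 12 compared member probes as deposited and under 3 normalizations; the dotted line marks 2-fold lower. UHRF1, the first DNMT3A probe, TET3 and the first MBD2 probe stay well below 0 throughout, while DNMT1, DNMT3B, the first TET2 probe and the second MBD2 probe cross it, and the second DNMT3A probe does under scaling to the 75th percentile.

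Around the members, lists of partner genes were counted on the brightest probe of each gene. In each list the count is to be read against the 70.7% of all compared genes that were lower. Counts with the level trend removed are to be read against 50.3%. PCNA and NNMT were at the top of the scanner range in both samples, have no readable direction and are left out, a choice made after seeing the data. Of 18 readable partners that recruit or modify the writers, 17 were lower, with a median of -0.36. The histone methyltransferase gene SUV39H1, at 67.5 in the shATMIN sample and 139 in the neo control, and TRIM28, the corepressor of zinc finger proteins at imprints, at 461 in the shATMIN sample and 843 in the neo control, stood lowest at -1.03 and -0.87. The only compared probe of SUV39H1 was dim, with its shATMIN value near the level for comparison. HELLS, the remodeller needed for methylation of repeats, was the exception at 0.12. Of 19 readable genes of S phase 18 were lower, with a median of -0.29, and the replication licensing genes CDC6 and CDT1 stood at -0.73 and -0.63. The lowest of the 19 was POLA1, a DNA polymerase gene, which read 61.0 in the shATMIN sample and 116 in the neo control. It was dim, with its shATMIN value near the level for comparison, unlike UHRF1. POLA1 stood at -0.92 against -0.96 for UHRF1, an order that turned once the level trend was removed, at -0.91 against -0.78. Then 12 of the 19 S phase genes and 13 of the 18 partners were lower, where 50.3% of all compared genes were.

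Of the 13 subunits of NuRD, the complex that MBD2 or MBD3 carries to DNA, 9 were lower, about the share over all compared genes, and the median was -0.42. GATAD2A stood at -0.91 on 1 probe and -0.22 on another, MTA3 at -0.78 and MBD3 at -0.74. Without the level trend 9 were lower too. Of 10 compared readers of methylated or unmethylated CpG 9 were lower, with a median of -0.23. The exception, ZBTB38, a zinc finger protein that binds methylated CpG, read 471.5 in the shATMIN sample and 144 in the neo control, a difference of 1.70. Its readings, 468 and 475 in the shATMIN sample and 140.3 and 148 in the neo control, did not overlap, on a single compared probe.

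Around TDG, 13 of 14 compared genes linked to base excision, other glycosylases among them, were lower, with a median of -0.30 and none past 1.5-fold. MBD4, a glycosylase for mismatches at CpG, stood lowest at -0.48. Of 13 compared cofactors and regulators of TET enzymes 10 were lower, with a median of -0.19. IDH3A, a subunit of a 2-oxoglutarate-producing dehydrogenase, stood at -0.67. OGT, the glycosyltransferase that binds TET proteins, stood at -0.53, and SLC23A2, a vitamin C transporter, at -0.91 on 1 probe and -0.04 on another. After removal of the trend 10 of the 14 and 7 of the 13 were lower.

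Of 20 readable genes of methyl donor supply 15 were lower, near the share over all compared genes, with a median of -0.28. MTAP, which salvages methylthioadenosine, read 765 in the shATMIN sample and 1835 in the neo control, a difference of -1.26, and MTRR, the reductase that keeps methionine synthase active, stood at -0.80. MAT2A, which makes S-adenosylmethionine, and AHCY, which clears its product, read higher, MAT2A at 0.22 on its brightest probe and 1.80 on another, and AHCY at 0.19 on its only compared probe.

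Germline genes that DNA methylation is known to hold silent, and imprinted genes, were looked at next. Of 29 germline genes 6 reached the level for comparison, and 4 of these were higher, with a median of 0.19 and none past 1.5-fold in either direction. MAGEB2 read 154 in the shATMIN sample and 112 in the neo control, and PAGE5 read 228.5 in the shATMIN sample and 169 in the neo control. The 2 that were lower, CTAG2 and SYCP3, stood at -0.26 and -0.20. PAGE1, also higher, read 8299 in the shATMIN sample and 7255 in the neo control, so it was not silent in either. Of 16 compared imprinted genes 11 were lower, again about the share over all compared genes, with a median of -0.27. PLAGL1, a zinc finger gene with a methylated imprint, read 79.5 in the shATMIN sample and 193 in the neo control, and PEG10 stood at -0.99 on 1 probe and 0.49 on another. After the trend on level was taken out 4 of the 6 germline genes were still higher, and 10 of 16 imprinted genes, 12 of 20 readable donor genes and 6 of 10 readers were lower. DNA methylation itself was not measured.

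**Figure D4:**
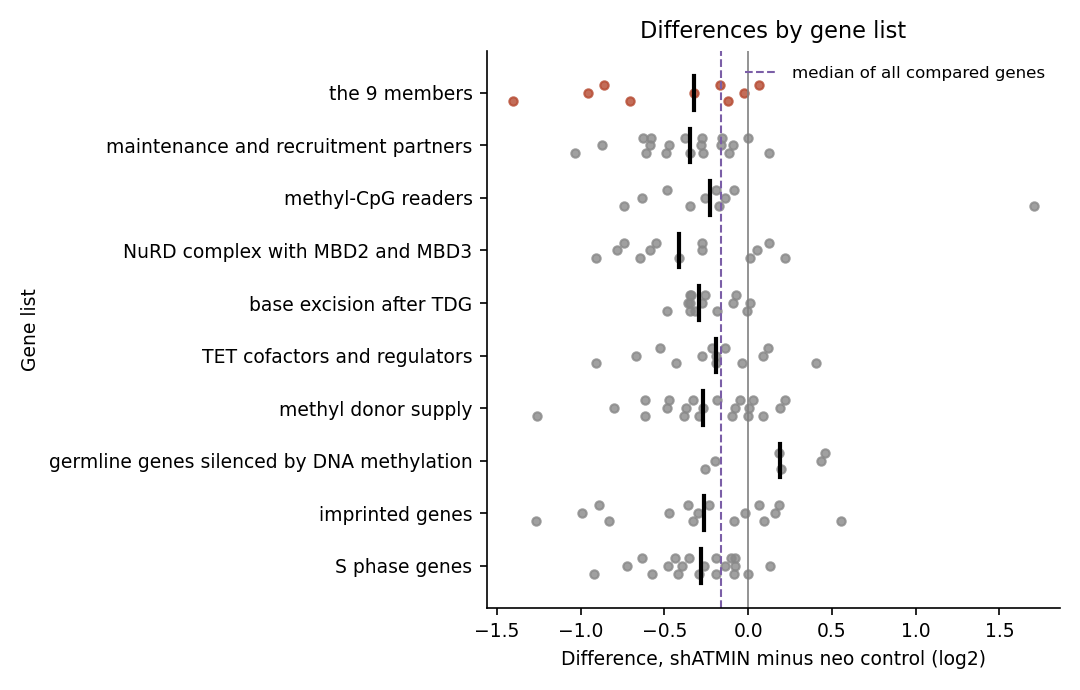
Difference in log2, shATMIN minus neo control, of the 9 members (top row) and of each gene in the lists around them, 1 point per gene on its brightest probe, PCNA and NNMT included; black bars are medians and the dashed line is the median of all compared genes. The members range from -1.40 to 0.06, ZBTB38 stands alone at 1.70, and the median of the 6 germline genes, 0.19, lies above 0.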

How the data were processed

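Total RNA of 1 shATMIN and 1 neo control sample was amplified and labelled with Cy5, per the labels' protocols, which list 2 arrays per sample. The deposited values are linear intensities, 1 per probe and sample, with background subtracted, judging by values below 0. The sources used here do not name the scanner, the background method or a normalization. The number of arrays limits their precision. Probes were named by the platform annotation, updated through RefSeq (GRCh38.p14).

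Negative values were raised to 0 before taking log2(intensity + 1), a scale that understates differences of dim genes. A gene was compared where the mean of its brightest probe reached the 40th percentile of all probes, an intensity of 58.9. Differences are shATMIN minus neo control. The members and lists were chosen with earlier results of these data known. Named were all 9 members, up to 4 genes per list by size, ATMIN and DYNLL1. HELLS, MAT2A, AHCY, PAGE1, PCNA, NNMT, PTPRC, CD3E, COL3A1 and the genes near the level of UHRF1 and DNMT3A were chosen after their values were seen. Some genes of the rule are not printed.

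Pairs of readings were recovered for values below 2000, within a tolerance of 5e-05, taking the closest pair that matched. Under 1000 all values were resolved, against 10.2% to 14.9% with a wrong step. From 1000 to 2000 a wrong step resolved 25.5% and 38.0% in the shATMIN sample and the neo control, and 37.0% and 91.4% had a single matching pair. The calculations were tested on simulated data. Alternatives covered normalization (75th percentile, quantile, loess with span 0.3), pseudocounts of 16 and 50, dim filters, probe choice, probe naming and size. Python 3.11.15, pandas 2.3.3, NumPy 2.4.6, statsmodels 0.14.6 and matplotlib 3.10.9 were used.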

Additional observations from a re-analysis of the deposited data

How the results depend on the processing

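No paired analysis was possible because each group holds 1 sample. As deposited 8 of the 9 members were lower. There were 5 with quantile normalization, with the level trend removed and with both samples scaled to their 75th percentile, where 49.5%, 50.3% and 41.2% of all compared genes were lower. By compared probes, a count added after seeing the data, 11 of 12 were lower. The count at least 2-fold apart was 1, became 4 at 1.5-fold, and was 0 with the mean of the probes of a gene, with a pseudocount of 50 and with a filter at the 60th percentile, which left 7 members and dropped DNMT3A and TET1. Over the normalizations and pseudocounts UHRF1 ranged from -0.96 to -0.72, the first DNMT3A probe from -1.40 to -0.92, the second from -0.16 to 0.07, TET3 from -0.86 to -0.63 and the first MBD2 probe from -0.70 to -0.47. Of all compared genes 57 were at least 2-fold higher and 166 lower. The counts were 122 and 36 with scaling, 96 and 50 with quantile normalization, 95 and 50 without the level trend, 29 and 97 with a pseudocount of 50, and 236 and 1517 at 1.5-fold. The higher count was 154 without a dim filter and 29 at the 60th percentile. The cause was not tested.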
